A study of Mus musculus with 11 samples.

Results

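The 9 noncoding RNAs described here, of 50600 rows in a mouse ventricle RNA-seq count table, were followed in neonatal hearts under right-sided pressure overload. They were taken by name, without a threshold, and all 9 were among the 15808 rows with enough counts to be tested. The choice was made with earlier results of these data known, so counts of called RNAs beside all genes are descriptive. Malat1 and Neat1 are long RNAs retained in the nucleus. Gas5, Snhg1, Snhg6, Snhg8, Snhg12 and Zfas1 are host transcripts of small nucleolar RNAs (snoRNAs). Gt(ROSA)26Sor is the noncoding transcript of the mouse Rosa26 locus, and it was chosen by its strong rise in P7 PAB hearts, that is, selected on the difference between the P7 PAB and P7 sham libraries, so its values at P7 are given as a description with no test.

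All libraries came from C57BL/6 mice operated on the day of birth (P0). Under hypothermic anaesthesia the chest was opened in every animal. Pulmonary artery banding (PAB) narrowed the pulmonary artery to the width of a fine needle, and the sham group had the operation without the band. Ventricles were taken at postnatal day 3 (P3) or day 7 (P7), which gave 3 libraries each of P3 sham, P3 PAB and P7 sham and 2 libraries of P7 PAB. The study asked which genes respond to pressure overload in the neonatal heart. The labels name no transgene for these animals. The study's separate lineage-tracing experiment used mice with a Rosa26 RFP reporter. Nothing in the labels says whether a library is 1 animal or a pool, so the p-values measure the spread between these libraries.

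Malat1 is one of the most abundant nuclear RNAs of mammalian cells and gathers at nuclear speckles, bodies rich in splicing factors. Neat1 is the scaffold on which paraspeckles, another kind of nuclear body, are built, and its gene lies beside that of Malat1. A snoRNA host gene carries snoRNAs in its introns. After splicing the snoRNAs are trimmed out of the introns and guide chemical modification of ribosomal RNA, while the spliced exons are exported and, in several hosts, degraded by nonsense-mediated decay when ribosomes run onto them. Many of these hosts begin, like ribosomal protein genes, with a C followed by a run of pyrimidines, a start known as the terminal oligopyrimidine (TOP) motif, which ties translation to growth signals. Counts of a host row cover its annotated exons and give no level of the snoRNAs. In GENCODE M21 the merged exons of Snhg1, Snhg8, Snhg12 and Zfas1 span the whole gene. A host count may therefore hold reads of unspliced RNA.

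The first 30 bases of each transcript are shown because snoRNA hosts are known for a pyrimidine-rich start. Sequences run 5′ to 3′ on the transcribed strand. Capitals mark an unbroken run of C and T that starts with a C at the first base, where it reached 3 bases or more. For a gene with several annotated starts, the start with such a run that most annotations shared is shown. Positions are on GRCm38, from GENCODE M21 except for Snhg8, whose start is the RefSeq one (GRCm38.p6).
Malat1 (chr19:5802643-5802672, minus strand): caggcattcaggcagcgagagcagagcagc
Neat1 (chr19:5845449-5845478, minus strand): aggagttagtgacaaggagggctcgctctt
Gas5 (chr1:161035166-161035195, plus strand): CTTTCggagctgtgcggcattctgagcagg
Snhg1 (chr19:8723487-8723516, plus strand): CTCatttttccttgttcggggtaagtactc
Snhg6 (chr1:9944089-9944118, minus strand): CTTTCTCggcagcgccgtagagcgcgagca
Snhg8 (chr3:123508307-123508336, minus strand): CTCTTTggctgcgatccgcctacgagtatg
Snhg12 (chr4:132308676-132308705, plus strand): CCTTTCTCgcttcatccgcggtccctgtct
Zfas1 (chr2:167063221-167063250, plus strand): CCTTTCgttccggcggctcctagagcgttt
Gt(ROSA)26Sor (chr6:113077181-113077210, minus strand): gctttggggctccggctcctcagagagcct

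A run of at least 5 bases was present at an annotated start of 5 of the 6 hosts, where the start shown was picked for its run, with 5 bases in the Gas5 start shown, 7 in Snhg6, 6 in Snhg8, 8 in Snhg12 and 6 in Zfas1. Snhg1 had 3. The same run was found for 10.9% of the 15591 tested genes with an annotated start, for 53.9% of 76 cytosolic ribosomal protein genes and in 2.51% of the 32851 RefSeq promoter entries, which hold 1 start each. Genes with many annotated starts had more chances to match, and Gas5 had 27. The match is to letters and shows no translation.

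The hosts also differ in their snoRNA load. Within the bounds of the gene on the same strand, the annotation places 9 snoRNAs in Gas5, 8 in Snhg1, 4 in Snhg12, 3 in Zfas1 and 1 each in Snhg6 and Snhg8. An example of each class is shown. Snord47 of Gas5 belongs to the box C/D class, which guides ribose methylation, and capitals mark matches to its C box (TGATGA) and D box (CTGA). Snora24 of Snhg8 belongs to the H/ACA class, which guides pseudouridylation, and capitals mark the ACA box, which lies 3 bases before its end.
Snord47 (chr1:161038082-161038158, plus strand): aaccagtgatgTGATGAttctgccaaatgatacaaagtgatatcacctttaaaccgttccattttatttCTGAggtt
Snora24 (chr3:123507937-123508066, minus strand): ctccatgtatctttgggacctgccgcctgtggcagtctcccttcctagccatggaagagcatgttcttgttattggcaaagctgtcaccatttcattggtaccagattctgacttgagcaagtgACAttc
The snoRNAs themselves could not be followed. Of 131 snoRNA rows, 107 had no count in any library, the largest count was 36, and 1 row (Snora26_2) was tested.

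The 11 libraries held 19274045 to 26820228 counts. Values below are counts per 1e6 counts (CPM) with TMM scaling, and "called" means a fold difference of 1.5 or more together with an edgeR quasi-likelihood p of at most 0.05 after Benjamini-Hochberg adjustment over all 15808 genes. The libraries differed in 3 ways that run alongside the groups. Xist, the RNA of the inactive X chromosome, was abundant in every P7 sham library (630 to 936 CPM) and in P3 sham 1 (1061 CPM), and was under 1 CPM in the other 7, where Ddx3y of the Y chromosome was 42.9 to 51.0 CPM. Thus all P7 sham libraries fell in one class and both P7 PAB libraries in the other. In P7 PAB the level of a gene fell with its exonic length, by 0.151 and 0.142 on the log2 scale per doubling of length, against slopes of -0.03 to 0.07 in the other 9 libraries. Mitochondrially encoded transcripts took 11.4% to 13.1% of counts at P3, 21.1% to 22.2% in P7 sham and 18.0% to 18.1% in P7 PAB. Each cardiomyocyte marker was detected and the 8 summed to 48822 to 66586 CPM, while 4 lung markers summed to at most 1.66 CPM in any library.

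The RNAs covered a wide range of levels. Exon length here merges all annotated exons, so an order per kilobase depends on the annotation as well as on the level. Per kilobase of exon, in P3 sham hearts, Malat1 was highest with 74.7 ± 23.4 CPM per kb (SD, n = 3), Neat1 followed with 11.8 ± 0.595 and Gas5 with 11.6 ± 0.607, a pair whose spreads overlapped. Snhg8 stood at 8.02 ± 1.84, Snhg6 at 6.16 ± 1.62 and Snhg1 at 5.31 ± 0.767 CPM per kb, with spreads that overlapped from one to the next. Zfas1 at 3.91 ± 0.685 and Gt(ROSA)26Sor at 3.27 ± 0.271 also overlapped, and Snhg12 was lowest at 1.95 ± 0.0681 CPM per kb. Library by library, the P7 PAB group stood apart from the other 3 groups for most of the RNAs.

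**Figure D1:**
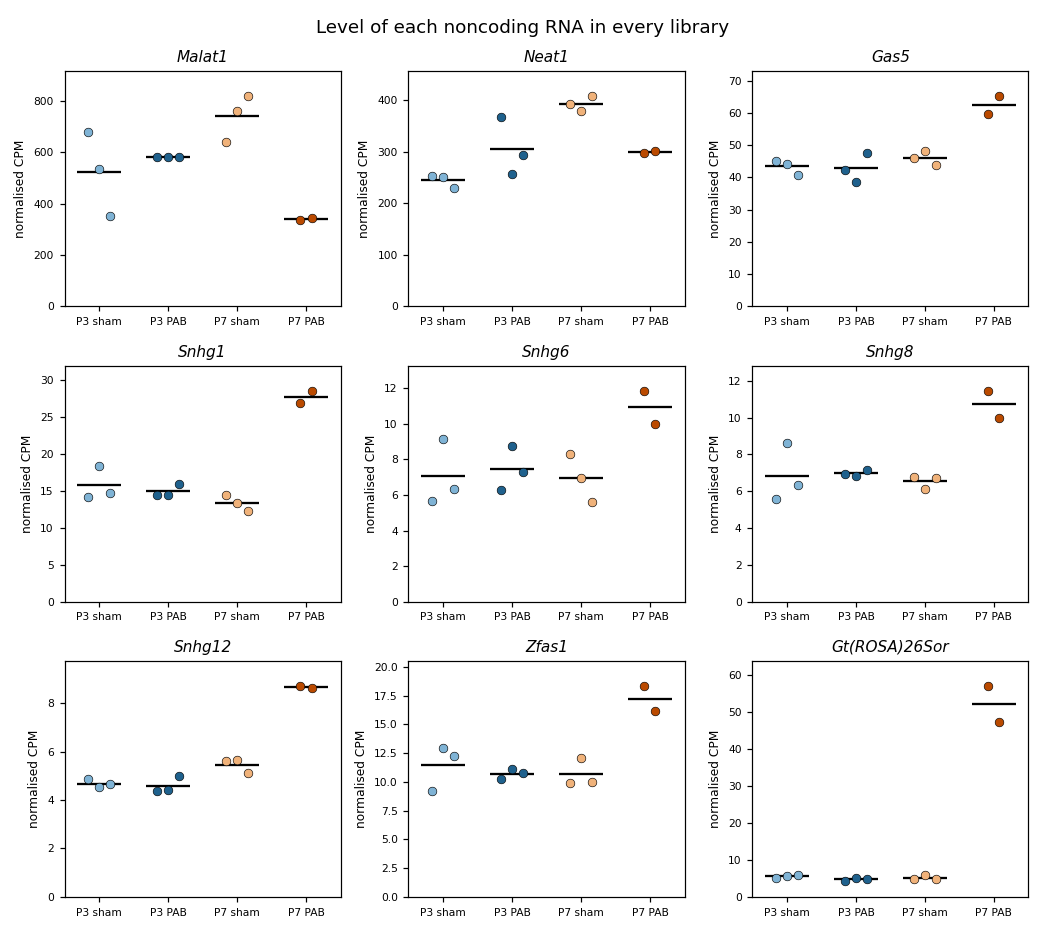
Normalised CPM of each of the 9 noncoding RNAs in every library, 1 point per library and a bar at the group mean, with a separate linear axis from 0 for each RNA. The 2 P7 PAB points lie above all 9 other points for the 6 snoRNA hosts and Gt(ROSA)26Sor, and below all 9 for Malat1.

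At P3, banding was not accompanied by a called change in any of the 9 RNAs. Malat1 measured 679, 534 and 353 CPM in P3 sham 1 to 3 and 581, 581 and 581 CPM in the P3 PAB libraries. The sham libraries were the scattered ones and the banded values fell inside their range. The highest of them, P3 sham 1, was the only high Xist library at P3, and the other sham libraries lay below the banded ones. The log2 fold change of Malat1 was 0.16 ± 0.16 (SE), with an edgeR adjusted p of 0.87. It ran from -0.06 to 0.39 over the fits that left out 1 library. Neat1 measured 254, 250 and 231 CPM in P3 sham and 368, 257 and 294 CPM in P3 PAB. These groups did not overlap, by 3.53 CPM at the closest pair. The log2 fold change of Neat1 was 0.32 ± 0.10, with an unadjusted edgeR p of 0.0057 and an adjusted p of 0.35, while 16.7% of all tested genes had non-overlapping groups here. Over the fits that left out 1 library, the value for Neat1 ran from 0.17 to 0.43.

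The 6 hosts lay between -0.11 (Zfas1) and 0.07 (Snhg6) on the log2 scale at P3. The 95% interval of the log2 fold change ran from -0.19 to 0.15 for Gas5, from -0.30 to 0.13 for Snhg1 and from -0.32 to 0.46 for Snhg6, so that a change in Snhg6 was the least tightly bounded. Gt(ROSA)26Sor measured 5.07, 5.59 and 5.98 CPM in P3 sham and 4.36, 5.07 and 4.79 CPM in P3 PAB. Its log2 fold change of -0.23 ± 0.13 had an edgeR adjusted p of 0.69. The count was 0 of 9 by edgeR and 0 of 9 by DESeq2, with 1 of 9 (Neat1) at an unadjusted p under 0.05 when fold size is set aside. Few genes of any kind were called in this comparison (0.127% of those tested).

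At P7 the banded hearts measured less Malat1 and more of the snoRNA hosts, though most of the calls depended on the fit. Leaving out Gt(ROSA)26Sor, 6 of the 8 RNAs were called (1 lower, 5 higher), against 18.2% of all tested genes (9.63% higher, 8.59% lower). The count was 2 of 8 with the length trend removed (Malat1 and Snhg1) and 2 of 8 with a term for the Xist and Y class (Snhg1 and Snhg12). All 8 had groups that did not overlap, but so did 60.3% of all genes with 2 libraries against 3.

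**Figure D2:**
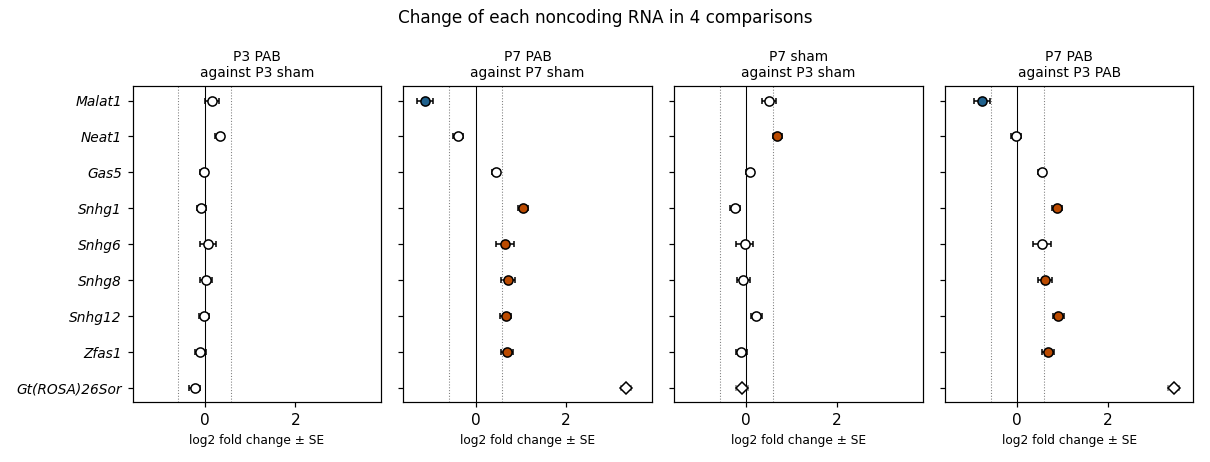
Log2 fold change with its SE for each RNA (rows) in 4 comparisons (panels). Filled points passed the fold and adjusted p thresholds, orange higher and blue lower, open circles did not, and diamonds are Gt(ROSA)26Sor values given without a test; dotted lines mark a fold change of 1.5. No circle is filled for P3 PAB against P3 sham, and 6 are filled for P7 PAB against P7 sham.

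Malat1 measured 638, 760 and 818 CPM in P7 sham and 337 and 344 CPM in P7 PAB. Every banded library was below every sham library at this age, and below the lowest P3 library as well (353 CPM in P3 sham 3). The level was 0.461 times that of sham (log2 fold change -1.12 ± 0.19, edgeR adjusted p = 2.2e-04). Malat1 was within the 525 genes with the lowest fold change of 15808. Neat1, its neighbour and the longest of the 9 with 20771 bases of exon, measured 394, 379 and 408 CPM in P7 sham and 298 and 302 CPM in P7 PAB. Its log2 fold change of -0.39 ± 0.11 had an edgeR adjusted p of 0.011 but did not reach 1.5-fold. The ratio of Malat1 to Neat1 CPM was 1.13 and 1.14 in P7 PAB and 1.53 to 2.68 in the other 9 libraries.

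Snhg1, which carries 8 snoRNAs, had the largest change of the tested members other than Malat1. It measured 14.4, 13.3 and 12.2 CPM in P7 sham and 26.9 and 28.5 CPM in P7 PAB. The banded libraries were above all 9 others, whose highest value was 18.4 CPM. Snhg1 was 2.08-fold higher (log2 fold change 1.06 ± 0.11, edgeR adjusted p = 5.0e-06).

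The other 5 hosts moved the same way by a smaller amount. Zfas1 measured 9.85, 12.1 and 10.0 CPM in P7 sham and 18.3 and 16.2 CPM in P7 PAB, and was 1.62-fold higher (edgeR adjusted p = 6.8e-04). Snhg8 measured 6.80, 6.12 and 6.75 CPM in P7 sham and 11.4 and 10.0 CPM in P7 PAB, and was 1.64-fold higher (edgeR adjusted p = 0.0015). Snhg12 measured 5.62, 5.64 and 5.11 CPM in P7 sham and 8.69 and 8.62 CPM in P7 PAB, and was 1.59-fold higher (edgeR adjusted p = 4.3e-04). These 3 hosts differ in snoRNA content and in level, and their fold changes lay within 1 SE of each other.

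Snhg6 was the least certain of the called hosts. It measured 8.33, 6.95 and 5.62 CPM in P7 sham and 11.8 and 10.0 CPM in P7 PAB, with sham libraries that spread over a wide range. It was 1.58-fold higher (log2 fold change 0.66 ± 0.20, edgeR adjusted p = 0.015), and the call was lost without P7 sham 3 (log2 fold change 0.52) or without P7 PAB 1 (0.53). Gas5, the most abundant host, measured 46.1, 48.1 and 43.8 CPM in P7 sham and 59.7 and 65.2 CPM in P7 PAB. It was 1.36-fold higher (log2 fold change 0.44 ± 0.09, edgeR adjusted p = 9.1e-04), which is under the fold threshold. Summed over the 6 hosts, the level was 137 and 139 CPM in P7 PAB and 83.5 to 97.9 CPM in the other 9 libraries.

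The size of several of these changes depended on the length trend and on the Xist and Y class that ran with the groups. With each library's trend over gene length removed, Malat1 (-0.97) and Snhg1 (0.91) were still called, Zfas1 (0.55), Snhg12 (0.46), Snhg8 (0.30) and Snhg6 (0.28) were not, and Neat1 was at 0.09 on the log2 scale. Snhg8 and Snhg6 are short, with 3.49% and 6.08% of tested genes shorter than they are. Length here merges all annotated exons. For Snhg1 (2969 bases), Zfas1 (2929), Snhg12 (2402) and Snhg8 (853) these span the whole gene. The trend removed may therefore not match the length of their spliced RNA. With that class as a term, Snhg1 (0.83) and Snhg12 (0.75) were called, and Malat1 (-0.50), Zfas1 (0.24), Snhg8 (0.28) and Snhg6 (0.20) were not. That term is estimated within P3 sham alone, from library 1 against libraries 2 and 3, because each other group holds a single class. Banding and class cannot be told apart in the P7 comparison itself. Snhg1 was the RNA called under both of these fits.

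**Figure D3:**
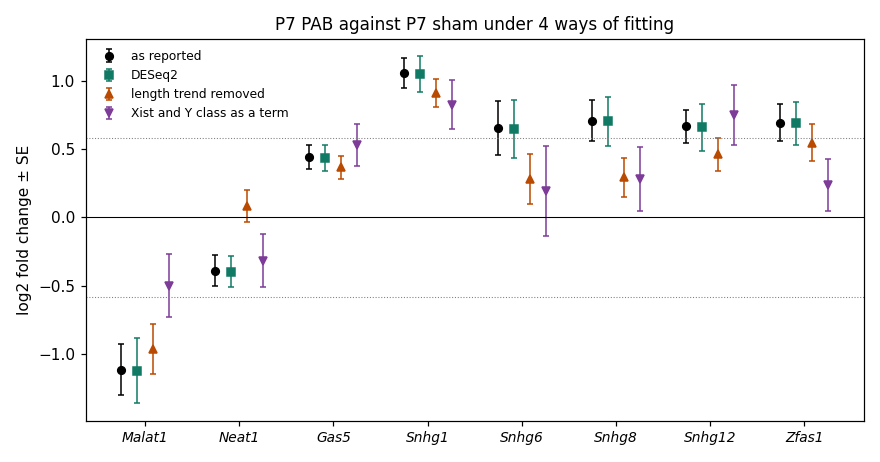
Log2 fold change with SE, P7 PAB against P7 sham, for 8 noncoding RNAs under 4 fits (symbols); dotted lines mark a fold change of 1.5. The fits as reported and by DESeq2 lie together, Snhg1 stays above the upper line in all 4, and Malat1 moves from -1.12 to -0.50 when the class is a term.

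Sums of several cell marker lists also did not overlap between the P7 groups, as held for 60.3% of single tested genes. Their part in these results was not tested. The 6 endothelial markers summed to 1365 to 1410 CPM in P7 sham and 1034 to 1134 CPM in P7 PAB, and the 8 fibroblast markers to 5999 to 6067 and 4573 to 5449 CPM. Cardiomyocyte markers summed to 58514 to 66586 CPM in P7 sham and 48822 to 55340 CPM in P7 PAB. The 4 brown fat markers summed to 19.05 to 24.7 CPM in P7 sham and 37.6 to 41.5 CPM in P7 PAB. The 5 atrial markers summed to 61.8 to 107 CPM in P7 sham and 141 to 168 CPM in P7 PAB, and the 6 erythroid markers to 2242 to 3035 and 3405 to 3905 CPM. The 4 skeletal muscle markers summed to 1.51 to 2.17 CPM in P7 sham and 2.86 to 3.36 CPM in P7 PAB. Sums of the smooth muscle and pericyte, macrophage, T cell and lung markers overlapped between the P7 groups. Called higher were 1 of 8 cardiomyocyte, 1 of 5 atrial and 2 of 6 smooth muscle and pericyte markers. The same held for 1 of 1 tested brown fat and 1 of 2 tested skeletal muscle markers. Called lower were 2 of 8 cardiomyocyte, 2 of 8 fibroblast and 1 of 6 macrophage markers. Of the endothelial and erythroid markers, 0 of 6 each were called, where 18.2% of all tested genes were. In bulk tissue fewer cells of a type and less RNA per cell cannot be told apart.

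Gt(ROSA)26Sor had the largest change of the 9 at P7, for which it was chosen. It measured 4.78, 5.93 and 4.86 CPM in P7 sham (97, 122 and 116 counts) and 57.0 and 47.2 CPM in P7 PAB (1305 and 958 counts). All 9 libraries outside P7 PAB held 4.36 to 5.98 CPM, so the 2 banded P7 libraries stood apart from P3 PAB as much as from sham. The level was 10.1-fold that of P7 sham, or 3.33 ± 0.12 on the log2 scale, ranking 26 of 15808 genes from the highest. It was 3.02 with the length trend removed and 3.14 with the class term. Whether the P7 PAB animals carried an engineered allele at this locus was not tested.

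The gene lies on the minus strand of chromosome 6 (113067428 to 113077333) and is annotated as antisense to Thumpd3, which encodes a tRNA methyltransferase and whose 3′ end it overlaps. Whether the counting used strand is not given in the sources used here, so reads in the overlap cannot be assigned with certainty. Thumpd3 measured 18.1, 18.8 and 17.2 CPM in P7 sham and 23.2 and 18.8 CPM in P7 PAB, with a log2 fold change of 0.22 ± 0.13 and an edgeR adjusted p of 0.17. Setd5, the neighbour on the other side, measured 93.8, 108 and 111 CPM in P7 sham and 138 and 126 CPM in P7 PAB, a log2 fold change of 0.34 ± 0.08 that did not reach 1.5-fold (edgeR adjusted p = 0.0025). Neither neighbour approached the change of Gt(ROSA)26Sor. The ratio of Gt(ROSA)26Sor to Thumpd3 CPM was 2.46 and 2.51 in P7 PAB and 0.217 to 0.382 in the other 9 libraries.

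**Figure D4:**
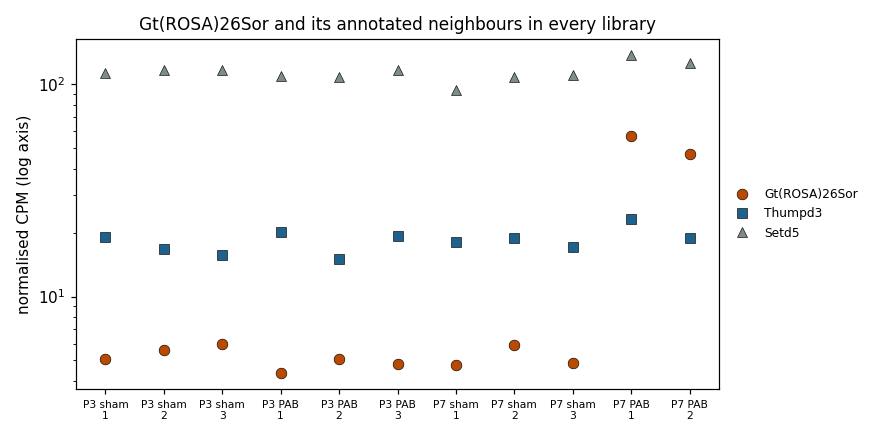
Normalised CPM on a log axis of Gt(ROSA)26Sor and its neighbours Thumpd3 and Setd5 in each of the 11 libraries (x axis). Gt(ROSA)26Sor lies between 4.36 and 5.98 CPM in 9 libraries and at 57.0 and 47.2 CPM in the 2 P7 PAB libraries, where it passes Thumpd3.

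Of 10 annotated neighbours of the 9 RNAs, 0 were called higher and 2 lower at P7, a share near that of all tested genes (18.2%), and the median was 0.15 on the log2 scale. The 2 overlap Gas5 and Zfas1 head to head. Zbtb37, a zinc finger gene whose start overlaps that of Gas5 on the opposite strand, measured 17.3, 30.3 and 32.5 CPM in P7 sham and 12.2 and 11.2 CPM in P7 PAB, and fell by 1.19 on the log2 scale (SE 0.19, edgeR adjusted p = 1.8e-04). Znfx1, a helicase gene whose start overlaps that of Zfas1 in the same way, measured 35.7, 33.5 and 36.6 CPM in P7 sham and 22.7 and 23.4 CPM in P7 PAB, and fell by 0.62 (SE 0.08, edgeR adjusted p = 1.9e-05). Without strand, host and neighbour reads in the shared stretch cannot be told apart, which also holds for Snhg6 and the 3′ end of Mcmdc2.

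Over the first postnatal week without banding, Neat1 alone of the 8 was called, where 11.3% of all tested genes were. It rose from 254, 250 and 231 CPM in P3 sham to 394, 379 and 408 CPM in P7 sham with no overlap, 1.61-fold (log2 fold change 0.68 ± 0.10, edgeR adjusted p = 1.4e-04). Malat1 had a log2 fold change of 0.50 ± 0.16 (edgeR adjusted p = 0.026) under the fold threshold, and its P3 sham 1 value of 679 CPM lay above P7 sham 1. It passed the threshold without P3 sham 1 (0.74) or without P7 sham 1 (0.60), and was at 0.28 without P3 sham 3. All P7 sham libraries but only 1 of the P3 sham libraries are of the high Xist class, and with the class as a term Malat1 was at 0.12 (edgeR adjusted p = 0.68) while Neat1 was still called (0.63). The 6 hosts lay between -0.25 (Snhg1) and 0.22 (Snhg12), and none passed by adjusted p. Gt(ROSA)26Sor, given with no test because its P7 sham libraries entered its choice, differed by -0.10 ± 0.13. The scaling matters here: with total counts the median gene moved by -0.31 on the log2 scale and Neat1 by 0.37, which was not called. Under that scaling the 6 hosts lay between -0.56 (Snhg1) and -0.09 (Snhg12), so that the signs of Gas5 and Snhg12 depend on it. With the class as a term Snhg6 (0.29), Snhg8 (0.23) and Zfas1 (0.21) turned from a negative to a positive sign, and none of the 6 was called.

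Between P3 PAB and P7 PAB hearts, all of the low Xist class, 5 of the 8 RNAs were called (17.7% of all genes). This comparison uses the same 2 P7 PAB libraries as the one above and the same length trend runs with it. Malat1 went from 581 CPM in each P3 PAB library to 337 and 344 CPM, and fell by 0.77 on the log2 scale (SE 0.18, edgeR adjusted p = 0.0033). Snhg12 measured 4.36, 4.42 and 4.996 CPM in P3 PAB against 8.69 and 8.62 CPM, and rose by 0.91 (SE 0.12, edgeR adjusted p = 3.6e-05). Snhg1 measured 14.4, 14.5 and 15.9 CPM in P3 PAB against 26.9 and 28.5 CPM, and rose by 0.89 (SE 0.11, edgeR adjusted p = 1.8e-05).

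Zfas1 (0.69 ± 0.13, edgeR adjusted p = 6.9e-04) and Snhg8 (0.62 ± 0.15, edgeR adjusted p = 0.0035) were also higher in P7 PAB than in P3 PAB. Gas5 at 0.55 ± 0.09 and Snhg6 at 0.56 ± 0.20 had edgeR adjusted p of 1.8e-04 and 0.032 but did not reach 1.5-fold. Over the fits that left out 1 library, Gas5 ran from 0.48 to 0.61 and Snhg6 from 0.43 to 0.69. Gas5 was called without P3 PAB 3, and Snhg6 without P3 PAB 2. Neat1 showed a difference of -0.03 ± 0.11 with a 95% interval from -0.27 to 0.21. Without P7 PAB 1 the call of Snhg8 was lost (0.52), and with the length trend removed those of Snhg8 (0.13) and Zfas1 (0.58) were. With total count scaling the median gene moved by -0.25, and Malat1, Snhg1 and Snhg12 were called. Gt(ROSA)26Sor differed by 3.46 ± 0.12, as a description.

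The effect of banding at P7 was also compared directly with that at P3. The 2 effects differed by an edgeR adjusted p of at most 0.05 in 7 of the 8 RNAs (2 lower, 5 higher at P7), against 25.9% of all tested genes (13.3% higher, 12.6% lower). The difference was -1.27 ± 0.24 on the log2 scale for Malat1, -0.71 ± 0.15 for Neat1, and 1.14 ± 0.15 for Snhg1. For Snhg6 it was 0.59 ± 0.27 with an edgeR adjusted p of 0.12. That of Neat1 was lost with the length trend removed (-0.28), that of Snhg8 (0.69 ± 0.21) with the length trend removed (0.34) or with the class as a term (0.39), and that of Zfas1 with the class as a term (0.48).

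Genes with related roles give the setting for the P7 values, and their counts are read against the 9.63% of all tested genes called higher and the 8.59% called lower. Another 8 snoRNA host RNAs could be tested. Of these, 4 were called higher and 0 lower, and their median was 0.58 on the log2 scale beside -0.0037 over all genes. The risers were Snhg3 (1.15 ± 0.16), Snhg20 (1.04 ± 0.11), Snhg5 (0.84 ± 0.14) and Snhg4 (0.59 ± 0.13), while Snhg14 (-0.02 ± 0.23) and Snhg17 (0.20 ± 0.13) were not called. The median was 0.57 with the length trend removed and 0.60 with the class as a term.

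Protein-coding genes that house snoRNAs in their introns had 12 of 28 called higher and 0 lower (median 0.53, or 0.31 with the length trend removed). The 3 largest were Gnb2l1, the ribosomal scaffold protein RACK1 (1.00 ± 0.08), Rpl12 (0.99 ± 0.11) and Rpl13a (0.95 ± 0.09). Of the 28, 14 are ribosomal protein genes with a numbered Rpl or Rps symbol, with 8 called higher and a median of 0.65. The other 14 had 4 called higher and a median of 0.20, and these 4 include Rpsa, also a ribosomal protein gene (0.84 ± 0.13). Cytosolic ribosomal protein genes with such a symbol had 55 of 76 called higher and 1 lower (median 0.80, or 0.53 with the length trend removed). The faller was Rpl3l, a muscle-restricted paralogue of Rpl3 (-0.74 ± 0.12).

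Proteins that assemble on snoRNAs had 4 of 11 called higher and 0 lower (median 0.22, or 0.32 with the length trend removed and 0.34 with the class as a term). Of these, 3 were core proteins of snoRNA particles, Nop10 (0.79 ± 0.09), Nhp2 (0.74 ± 0.12) and Nhp2l1 (0.64 ± 0.08), and the other was the assembly factor Shq1 (0.61 ± 0.16). Dkc1, the pseudouridine synthase of the H/ACA particle, was at 0.02 ± 0.09, and Fbl, the methyltransferase of the C/D particle, at 0.36 ± 0.09, and neither was called. Nonsense-mediated decay factors had 1 of 14 called higher, the exon junction protein Magoh (0.68 ± 0.11), and 0 lower, with a median of -0.26, or -0.12 with the length trend removed. The called share in this comparison was near that of all genes. For the difference of the effects at P7 and P3, 1 of the 14 was called higher and 6 lower. Of all tested genes, 13.3% were called higher and 12.6% lower there. Upf1, the helicase central to this decay, was at -0.56 ± 0.09 (edgeR adjusted p = 1.5e-04), short of 1.5-fold.

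Paraspeckle and speckle proteins are partners of the nuclear RNAs. Of 14 paraspeckle proteins, 1 was called, Sfpq, which binds Neat1 and was lower (-0.67 ± 0.08), and the list median was -0.07, or 0.01 with the length trend removed. Of 12 nuclear speckle proteins, Srrm2 (-0.95 ± 0.13) and Srrm1 (-0.75 ± 0.08), both coactivators of splicing, were called lower, 0 were higher, and the median was -0.05, or 0.01 with the length trend removed. Srrm2 measured 507 to 580 CPM in P7 sham and 227 and 335 CPM in P7 PAB.

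Other long noncoding RNAs had no common direction at P7, with 4 of 22 higher and 4 lower (18.2% each way, median 0.01, or 0.10 with the length trend removed). The risers were Pvt1 (1.17 ± 0.35), Dancr (1.10 ± 0.22), Mirg (0.78 ± 0.30) and Crnde (0.64 ± 0.14). The fallers were 2900097C17Rik (-1.34 ± 0.12), the myosin heavy chain antisense RNA Mhrt (-0.91 ± 0.12), Jpx (-0.83 ± 0.29), an X-linked activator of Xist, and the imprinted Kcnq1ot1 (-0.79 ± 0.14). For Jpx, banding and the Xist and Y class cannot be told apart at P7. Between P3 PAB and P7 PAB, both of the low Xist class, Jpx differed by -0.26 ± 0.29 (edgeR adjusted p = 0.51). None of these lists had a called gene at P3.

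**Figure D5:**
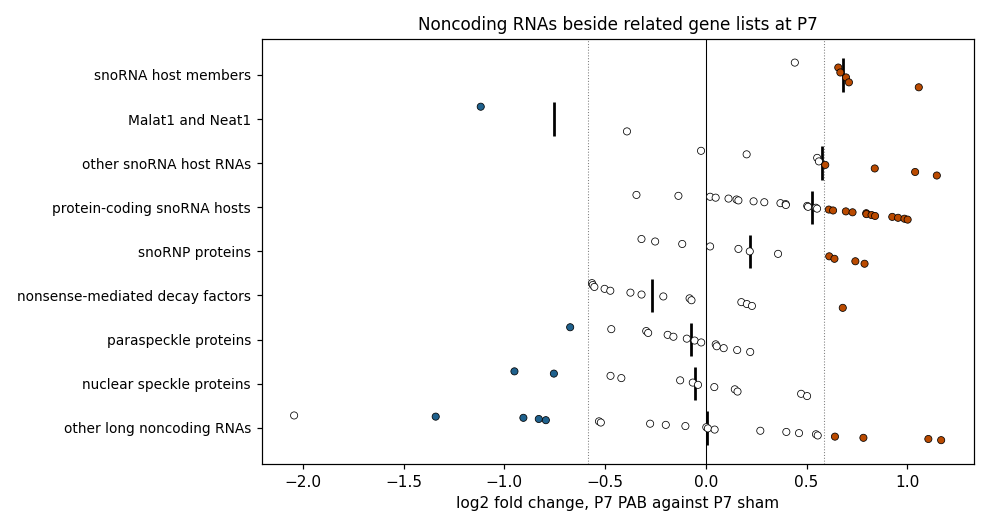
Log2 fold change, P7 PAB against P7 sham, of the host and nuclear RNAs and of 7 related gene lists (rows), 1 point per gene, orange called higher, blue called lower, open not called; the bar is the median and dotted lines mark a fold change of 1.5. The 6 host RNAs all lie right of 0, and the other long noncoding RNAs lie on both sides.

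The related lists were also read across age. Of all tested genes, 11.3% were called in either direction between the sham groups and 17.7% between the PAB groups. From P3 sham to P7 sham, 0 of the 8 other host RNAs were called, with a median of -0.19, and 0 of the 11 snoRNA particle proteins, with a median of -0.29, and in lists this short a count of 0 is near that background. Of the 22 other long noncoding RNAs, Mhrt was called higher (0.86 ± 0.10) and H19, an imprinted RNA of fetal tissues, lower (-0.69 ± 0.07). From P3 PAB to P7 PAB, 4 of the 8 other host RNAs were called higher, namely Snhg3 (1.38 ± 0.16), Snhg18 (0.98 ± 0.10), Snhg20 (0.96 ± 0.11) and Snhg4 (0.62 ± 0.13), and Snhg11 was called lower (-3.74 ± 1.20). Snhg11 is a row of low counts, at 0.260 to 5.69 CPM in P3 PAB, a scattered group, and 0.148 to 0.175 CPM in P7 PAB. Of the 76 cytosolic ribosomal protein genes, 38 were called higher and 0 lower (median 0.58, or 0.33 with the length trend removed).

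Genes whose levels followed those of 3 members most closely are listed as a description over 11 libraries, which share 4 groups and the length trend. For Malat1 these were Gm13301 (Pearson r = 0.947), a row at 0 to 1.09 CPM, Dst (r = 0.927), which encodes the cytoskeletal linker dystonin, and Adamts15 (r = 0.926), an extracellular protease. Dst measured 453 to 579 CPM in P7 sham and 255 to 286 CPM in P7 PAB. For Gas5 they were Phkg2 (r = 0.969), Glrx3 (r = 0.957) and Snhg12 (r = 0.955), so another host was among its 3 closest genes. For Gt(ROSA)26Sor they were Il11ra1 (r = 0.983), the interleukin 11 receptor chain, Cox6c (r = 0.982), a subunit of cytochrome c oxidase, and Trappc2l (r = 0.980). Trappc2l measured 12.9 to 13.1 CPM in P7 sham and 25.3 to 28.04 CPM in P7 PAB.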

How the data were processed

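RNA-seq was performed on mouse ventricles, 11 libraries in 4 groups (sham or PAB, P3 or P7). The authors deposited raw read counts per gene. Per the submitters' processing notes, reads were aligned with STAR 2.5.2b to GRCm38/mm10. The counter, strandedness, RNA selection and annotation release are not given in the sources used here. Zfas1 is listed as 1500012F01Rik and was matched by RefSeq synonym; 48559 of 50600 rows matched GENCODE M21.

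Counts were tested with edgeR 4.0.16 (R 4.3.3): TMM scaling, filterByExpr, 1 quasi-likelihood fit over all groups, called at 1.5-fold and adjusted p of 0.05 (no fold threshold for the difference of effects). DESeq2 1.42.0, other scalings and filters, a length trend (lowess span 0.3), a class term, a replicate block and leaving out each library were alternatives. The procedure was tested on simulated data. Members and lists were chosen with earlier results of these data known. Named genes were the members, their neighbours, up to 3 called risers and fallers per list, and the 3 best correlated genes; others were named after their values were seen.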

Additional observations from a re-analysis of the deposited data

Results flagged for a closer look

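The effect of banding differed between P7 and P3 by the edgeR interaction term (adjusted p of at most 0.05) in 7 of 8 RNAs, against 25.9% of all tested genes. For Malat1 the log2 effect was 0.16 at P3 and -1.12 at P7, a difference of -1.27 (adjusted p = 0.0019). For Neat1 it was 0.32 and -0.39, a difference of -0.71 (adjusted p = 0.0037), and the difference was -0.28 with the length trend removed (adjusted p = 0.24). Snhg1 went from -0.08 to 1.06, a difference of 1.14 (adjusted p = 1.8e-04), and Zfas1 from -0.11 to 0.70, a difference of 0.80 (adjusted p = 0.0055). Snhg12 differed by 0.69 (adjusted p = 0.0078), Snhg8 by 0.69 (adjusted p = 0.024) and Gas5 by 0.46 (adjusted p = 0.011). With the length trend removed the difference of Snhg8 was 0.34 (adjusted p = 0.24), and with the class as a term it was 0.39 (adjusted p = 0.27). It was 0.48 without P3 sham 2 (adjusted p = 0.063), 0.64 without P7 sham 2 (adjusted p = 0.053) and 0.59 without P7 PAB 1 (adjusted p = 0.11). That of Snhg12 was 0.53 with the length trend removed and a replicate block (adjusted p = 0.058). That of Zfas1 was 0.48 with the class as a term (adjusted p = 0.092). In these 7 RNAs both P7 PAB libraries lay on the same side of all 3 P7 sham libraries, as in 60.3% of all tested genes. Groups of 2 or 3 libraries were not tested for an outlying library; the fits that left out each library in turn are given with the processing.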

How the results depend on the processing

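The counts of called RNAs held within 1.5 times under the other scalings, filters and tests except as follows. For P7 PAB against P7 sham, 6 of 8 became 2 with the length trend removed, 2 with the trend removed and a replicate block, and 2 with a term for the Xist and Y class. For P7 sham against P3 sham, 1 of 8 became 0 with total count scaling, 2 without a fold threshold, and ranged from 1 to 2 over the fits that left out 1 library. For P7 PAB against P3 PAB, 5 of 8 became 3 with total count scaling and 3 with the length trend removed. For the difference of effects, 7 of 8 became 4 with the trend removed and a replicate block. The cause was not tested.

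At P7 the count ranged from 5 to 6 over the fits that left out 1 library. The plain replicate block changed no count, and the numbers do not pair the libraries: of 15 same-numbered pairs, 1 had a correlation of deviations over 0.1 (range -0.10 to 0.14). The planned fit without a filter returned an infinite prior, so a fit with bias-adjusted residuals was added after seeing the data, and it changed no count. Of 981 refitted values of single RNAs, 31 lost a call, 7 gained one, and 0 called values changed sign. A group of 2 libraries limits all P7 PAB results. Snhg6, Snhg8 and Snhg12 rest on 101 to 271 counts per library.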
